A study of Mus musculus with 2 samples.

Results

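CTCF binding was compared between mouse embryonic stem (ES) cells and mouse embryonic fibroblasts (MEFs) around 5 genes of the fibroblast program, Col1a1, Col1a2, Col3a1, Fn1 and Vim. A peak belonged to a gene when its midpoint lay within 100 kb of the gene's span in the mm9 build. The rule itself uses no measured value, but the genes were chosen with earlier results of these data known. By this rule 43 of 44424 ES peaks and 67 of 53736 MEF peaks were members. The farthest members lay 97.3 kb (ES) and 97.1 kb (MEF) from a span, and the nearest peaks left out lay 114.7 kb (ES) and 102.3 kb (MEF) away. Peaks had been called from chromatin immunoprecipitation and sequencing, with 1 library per cell type and the same catalogue antibody against CTCF. By the labels, the MEFs had a C57BL6 genetic background and the ES cells a background of Bl3.10 and C57BL, and both were grown in serum-supplemented DMEM. They name no clone, passage or number of embryos. Cell type, genetic background and library therefore cannot be told apart, and no test between the cell types was possible. Expression was not measured, so the cell labels were not checked against marker genes. The number of reads is unknown, and intervals below cover counting error only.

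CTCF is a zinc-finger protein that binds insulators and, together with cohesin, holds the ends of many chromatin loops. A CTCF site can lie far from the gene whose contacts it shapes, so a neighbourhood is informative beside the promoter. Fibroblasts are the main producers of interstitial matrix. Col1a1 and Col1a2 encode the chains of type I collagen, the principal fibre of skin, bone and tendon, and Col3a1 encodes the chain of type III collagen, found with it in soft tissues. Fn1 encodes fibronectin, a matrix glycoprotein that integrins bind, and Vim encodes vimentin, the intermediate filament of mesenchymal cells.

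Every one of the 5 neighbourhoods held more MEF than ES peaks, which is also the commoner state elsewhere: 57.5% of the 9301 autosomal 250 kb windows with a peak held more MEF than ES peaks. Col1a1 had 28 ES and 39 MEF peaks. Fn1 had 5 ES and 11 MEF peaks, and Col3a1 had 1 ES and 6 MEF peaks. The other two were nearly balanced, with 5 and 6 peaks at Col1a2 and 4 and 5 peaks at Vim. Pooled over the genes there were 1.56 MEF peaks per ES peak (95% exact binomial interval 1.05 to 2.34). The autosomal ratio was 1.20 (1.185 to 1.215) and lay inside that interval. Col1a1 alone supplied 28 of 43 ES and 39 of 67 MEF members, so pooled values are also given without it.

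**Figure D1:**
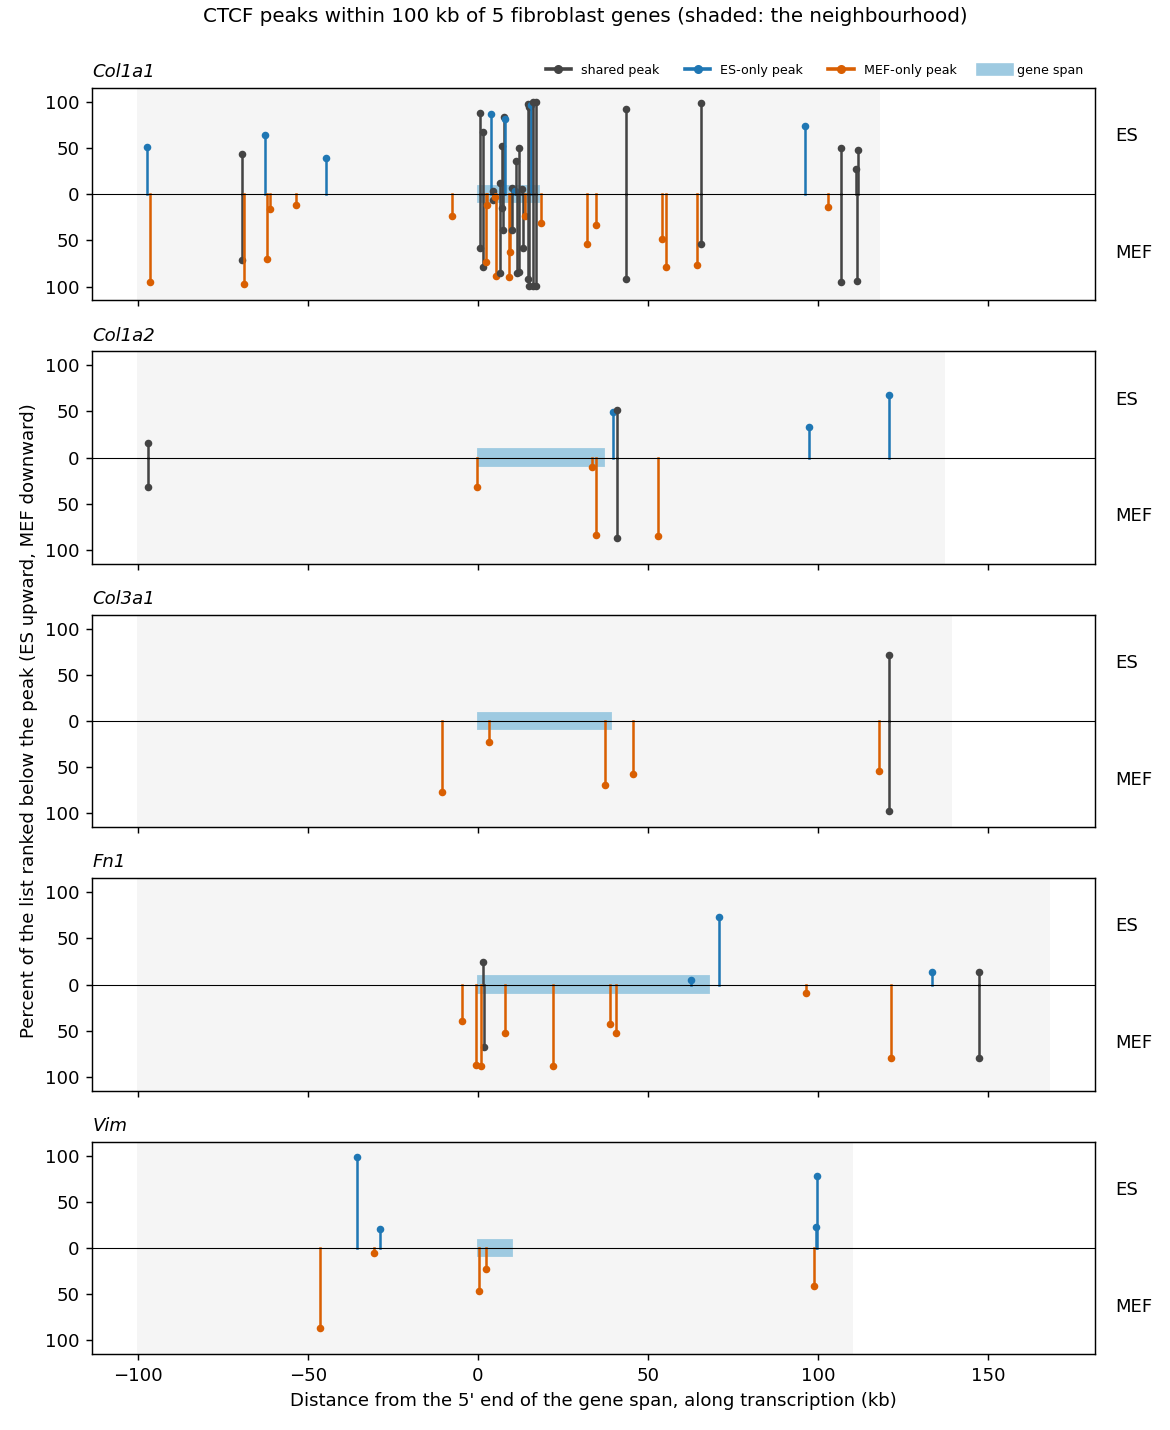
Each stem is a CTCF peak, placed by its distance in kb from the 5′ end of the gene span along transcription, with ES peaks drawn upward and MEF peaks downward. Stem length is the percentage of the same list that ranks below the peak by score, blue bars are the gene spans and grey shading is the neighbourhood. Peaks crowd the Col1a1 span in both lists, whereas the spans of Col1a2, Col3a1 and Vim hold MEF peaks and no ES peak.

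Peaks of the 2 lists with at least 1 bp in common were classed as shared, and all others as ES-only or MEF-only. Among the members, 25 of 43 ES peaks were shared (58.1%, 95% exact interval 42.1 to 73.0), against 26.1% of the whole ES list. Of the 67 MEF peaks, 24 were shared (35.8%, 24.5 to 48.5), against 21.6% of the whole MEF list. Both values rested on Col1a1. Without its neighbourhood, 33.3% of ES peaks (5 of 15, interval 11.8 to 61.6) were shared. For MEF peaks the remaining share was 17.9% (5 of 28, interval 6.06 to 36.9), and both intervals include the value of the whole list.

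The Col1a1 span was packed with CTCF peaks in both cell types. Within its 18 kb (chromosome 11, 94797000 to 94815000), ES cells had 18 peaks and MEFs had 21. Neighbouring midpoints were a median of 789 bp apart in ES cells (from 298 to 2277 bp) and 643.5 bp apart in MEFs (from 273 to 1789 bp). ES peaks covered 39.05% of the span and MEF peaks covered 44.96%. Over autosomes and X, the median number of peaks in the 18 kb from a peak onward was 1 in either list. Counted this way, only 2 places in each list were as full as the Col1a1 span, and Col1a1 was 1 of them in both.

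**Figure D2:**
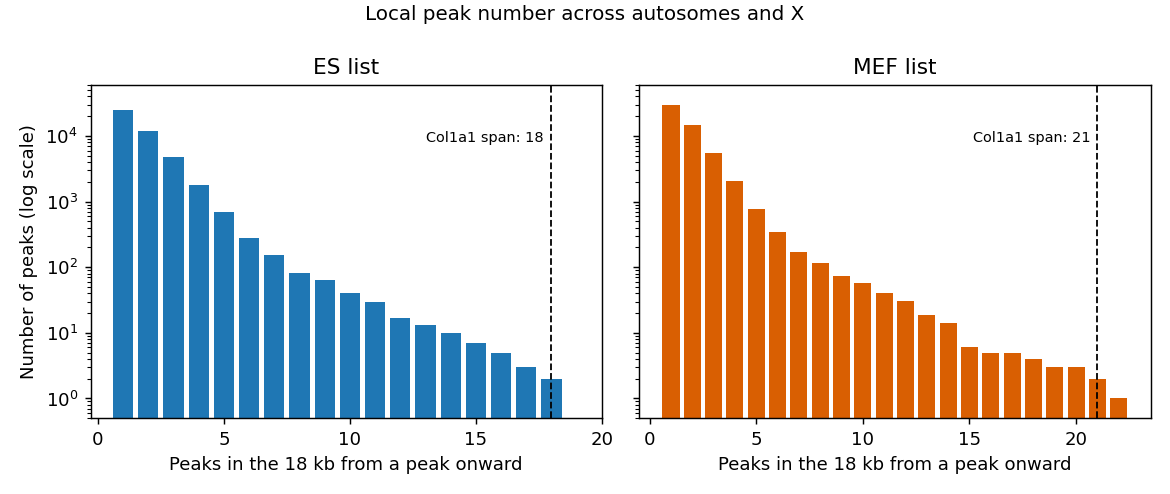
Histograms of the number of peaks within 18 kb from each autosomal or X-linked peak onward, including that peak, for the ES list (left) and the MEF list (right), with a logarithmic vertical axis. The dashed lines mark the Col1a1 span with 18 ES and 21 MEF peaks, at the far end of both distributions.

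Inside Col1a1, 14 of 18 ES peaks (77.8%, interval 52.4 to 93.6) had a MEF partner. In MEFs 14 of 21 peaks (66.7%, interval 43.0 to 85.4) had an ES partner. A peak centred on any base of the span would overlap a MEF peak at 71.6% of positions and an ES peak at 67.1% of positions, which is inside both intervals. The median distance between the midpoints of shared peaks was 121.5 bp inside Col1a1 and 63 bp at the other 4 genes. In so crowded a span, shared peaks do not show that single sites coincide.

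Of all members, the highest-ranked peaks of both lists stood at the 3′ end of Col1a1. The score is the authors' own value for each peak and is not defined in the sources used here, so it served only to rank peaks within a list. In ES cells the peak at chr11:94813850-94814248, 17.05 kb from the 5′ end, had a score of 800 and ranked 68 of 44424. In MEFs the overlapping peak at chr11:94813947-94814345 had a score of 863 and ranked 51 of 53736. The next pair upstream ranked 87 in ES cells (chr11:94813061-94813459, score 575) and 69 in MEFs (chr11:94812949-94813347, score 566). These pairs had midpoints 97 and 112 bp apart.

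Just before these pairs, the MEF peak at chr11:94811904-94812302 had a score of 380 and ranked 95. It overlapped a pair of ES peaks, one with its midpoint 30 bp away that ranked 2371 (score 168) and one at chr11:94811527-94811925 that ranked 975 (score 213). The ES peak between these and the top pairs, chr11:94812304-94812702, ranked 1662. It was counted as ES-only because its midpoint lay 400 bp from the nearest MEF peak, just too far for peaks of 399 bp to overlap. All 5 ES peaks from 14.73 kb to the end of the span ranked within the top 10% of the ES list, as did the 4 MEF peaks there in the MEF list.

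Toward the 5′ end and in the middle of Col1a1, ranks were mixed. The ES peak nearest the 5′ end, 0.627 kb inside the span (chr11:94797428-94797826), ranked 5279, and the overlapping MEF peak 0.711 kb inside (chr11:94797512-94797910) ranked 22338. Near 4.3 kb both lists had a shared peak in their lowest-scoring 10%, at 96.3% of the way down the ES list and 94.2% of the way down the MEF list. In all, 12 of 18 ES peaks and 14 of 21 MEF peaks inside Col1a1 belonged to the higher-scoring 50% of their list. The median position was 25.7% from the top in ES cells and 26.2% in MEFs.

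**Figure D3:**
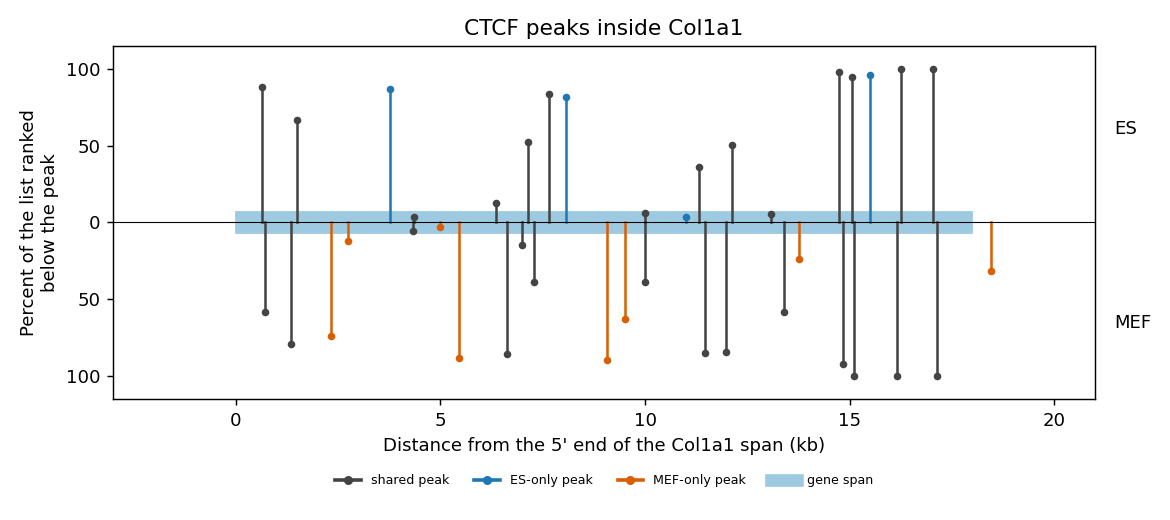
CTCF peaks from 3 kb before to 3 kb after the Col1a1 span, by distance in kb from its 5′ end, ES upward and MEF downward. Stem length is the percentage of the list ranking below the peak, and the tallest stems of both lists stand between 14.7 and 17.2 kb, at the 3′ end.

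The flanks of Col1a1 were also dense. They held 10 ES and 18 MEF peaks in 200 kb, or 50 and 90 per Mb, whereas all autosomes together had 17.6 ES and 21.1 MEF peaks per Mb. With spans and flanks counted, only 16 of the 9301 autosomal windows of 250 kb held at least the 28 ES peaks of this 218 kb neighbourhood, and only 2 held at least its 39 MEF peaks. Of the flanking peaks, 6 of 10 in ES cells were shared (60%, interval 26.2 to 87.8), against 26.1% of the whole ES list. In MEFs 5 of 18 were shared (27.8%, interval 9.7 to 53.5), near the 21.6% of the whole MEF list. A pair 25.4 kb beyond the 3′ end ranked high in both lists, at 3387 (ES, chr11:94840217-94840615) and 4658 (MEF, chr11:94840220-94840618), with midpoints 3 bp apart.

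Several other Col1a1 flanking peaks ranked differently in the lists. The ES peak at chr11:94862485-94862883, 47.7 kb past the span, was the highest of the ES flanking peaks and ranked 365, while its MEF partner ranked 24865. A pair 88.7 kb past the span showed the reverse, ranking 22067 in ES cells and 2853 in MEFs. Upstream, the highest MEF peak lay 68.7 kb before the gene (chr11:94728075-94728473, rank 1516) and had no ES partner, although an ES peak stood 609 bp away. In the RefSeq order of genes, the next protein-coding gene downstream of Col1a1 is Sgca, which encodes the muscle protein alpha-sarcoglycan.

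Col1a2 showed a different arrangement, with no ES peak inside its 37 kb span (chromosome 6, 4455000 to 4492000). At the autosomal density of 17.6 ES peaks per Mb, a span of this length would often hold none. MEFs had 2 peaks inside, both near the 3′ end, at 33.68 and 34.59 kb, which ranked 48501 and 8820. A further MEF peak stood 0.27 kb before the 5′ end (chr6:4454531-4454929, score 38, rank 36827). The ES peak nearest that end was 39.8 kb away, beyond the gene. Just past the 3′ end, 3.9 kb from the span, was a shared pair with midpoints 37 bp apart, which ranked 21621 in ES cells (chr6:4495721-4496119) and 6731 in MEFs (chr6:4495758-4496156).

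The remaining Col1a2 peaks lay in the flanks. A low-ranked pair was shared 97 kb upstream, ranking 37416 in ES cells and 36827 in MEFs. ES cells had 3 peaks without a partner, all downstream. The highest of these, 83.7 kb past the span (chr6:4575457-4575855), ranked 14303 and was the top ES peak of the neighbourhood. MEFs had 1 unpartnered downstream peak, 15.9 kb past the span, which ranked 8272. The adjoining protein-coding genes in RefSeq order are Bet1 upstream and Casd1 downstream.

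Col3a1 was the sparsest neighbourhood in ES cells. Its 39 kb span on chromosome 1 (45368000 to 45407000) held no ES peak and 2 MEF peaks, 3.28 and 37.44 kb from the 5′ end, which ranked 41669 and 16748. In ES cells the 5′ end fell in a stretch of 426.5 kb between neighbouring peaks, from 305.6 kb before it to 120.9 kb after it. Of the autosomal sequence between ES peaks, 17.8% lay in stretches at least that long. In MEFs the same end fell in a stretch of 13.8 kb, between the upstream peak at chr1:45357300-45357698 (rank 12370) and the first peak inside the gene.

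The single ES peak near Col3a1 was shared, and it was also the place of the highest MEF rank there. It lay 81.9 kb past the 3′ end. The ES peak (chr1:45488720-45489118) ranked 12656, the MEF peak (chr1:45488707-45489105) ranked 1257, and the midpoints were 13 bp apart. In RefSeq order the gene on that side is Col5a2, which encodes a chain of type V collagen. The other 5 MEF peaks had no ES partner, and for 4 of them the nearest ES peak was 75.2 kb or more away.

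Fn1 carried the largest number of MEF peaks outside Col1a1, and 3 of these 11 lay within 1.72 kb of its 5′ end. The gene is read toward lower coordinates, so its 5′ end is at 71700000 on chromosome 1 and its 3′ end at 71632000. MEFs had 6 peaks inside and ES cells 2. MEF peaks stood 0.424 kb before the 5′ end (chr1:71700225-71700623, rank 6921) and 0.96 kb (chr1:71698841-71699239, rank 6175) and 1.72 kb (chr1:71698078-71698476, rank 17333) after it. ES cells had 1 peak in this stretch, at 1.52 kb (chr1:71698283-71698681). It ranked 33521 and overlapped the MEF peak at 1.72 kb, with midpoints 205 bp apart.

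Further inside Fn1, MEFs had peaks at 8.05, 22.15, 38.75 and 40.71 kb, and the nearest ES peak was 6.54 kb or more from each of them. The one at 22.15 kb (chr1:71677650-71678048) ranked 6175, level with the peak at the 5′ end. The other ES peak inside Fn1, 62.55 kb from the 5′ end, ranked 42085, near the bottom of its list. The top ES peak of the neighbourhood (chr1:71629074-71629472, rank 11752) lay 2.73 kb past the 3′ end, and the nearest MEF peak was 25.6 kb from it. Upstream of Fn1 the ES list had no further peak for 442.4 kb. The 5′ end thus fell in a stretch of 444 kb between neighbouring ES peaks. Of the autosomal sequence between ES peaks, 17% lay in stretches at least that long. In RefSeq order the adjoining protein-coding genes are Mreg upstream and Atic downstream.

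No peak near Vim was shared, but there were only 4 ES and 5 MEF peaks. The intervals of the shared percentage, 0 to 60.2 (ES) and 0 to 52.2 (MEF), include the 26.1% and 21.6% of the whole lists. The 10 kb span on chromosome 2 (13495000 to 13505000) held 2 MEF peaks, 0.184 and 2.35 kb from the 5′ end (chr2:13494985-13495383, rank 28629, and chr2:13497154-13497552, rank 41669). The ES peak nearest that end was 28.8 kb upstream. The highest ES peak of the neighbourhood, chr2:13459353-13459751, lay 35.4 kb upstream with a score of 238 and ranked 666. By position within its own list it was the highest of all members outside the Col1a1 neighbourhood, and its nearest MEF peak was 4.78 kb away. From 88.7 to 89.7 kb past the gene, 2 ES peaks and 1 MEF peak stood within 1007 bp of each other, with no overlap between the lists. The adjoining protein-coding genes in RefSeq order are Trdmt1 upstream and St8sia6 downstream.

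The MEF peaks at the starts of Col1a2 and Vim had no ES counterpart nearby, and the RefSeq promoters of these genes are shown for the letters they hold. Each runs from 250 bases before to 50 bases after the annotated start, in the build GRCm38.p6, on the plus strand. The peaks are in mm9 and the spans are given to the nearest kb, so whether a peak covers these bases was not determined. Capitals mark CCCTC, the short word after which CTCF is named, and its reverse complement GAGGG. The Col1a2 promoter is chr6:4505368-4505667 and the Vim promoter is chr2:13574061-13574360 in that build.
Col1a2: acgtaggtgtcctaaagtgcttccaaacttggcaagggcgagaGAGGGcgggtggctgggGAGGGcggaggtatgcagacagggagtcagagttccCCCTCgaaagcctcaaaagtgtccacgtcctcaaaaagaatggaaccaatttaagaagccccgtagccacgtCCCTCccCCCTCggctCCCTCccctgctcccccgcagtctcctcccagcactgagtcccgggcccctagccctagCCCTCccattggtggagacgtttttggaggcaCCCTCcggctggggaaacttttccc
Vim: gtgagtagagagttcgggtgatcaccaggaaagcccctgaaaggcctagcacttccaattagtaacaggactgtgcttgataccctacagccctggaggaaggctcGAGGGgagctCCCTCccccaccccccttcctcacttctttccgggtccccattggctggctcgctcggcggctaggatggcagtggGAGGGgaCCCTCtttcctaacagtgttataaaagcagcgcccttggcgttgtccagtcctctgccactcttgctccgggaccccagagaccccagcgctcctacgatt
The Col1a2 promoter held the word 8 times, 6 on the strand shown and 2 on the other, and the Vim promoter 4 times, 2 on each strand. The word is common, and 65.95% of the 32851 RefSeq promoters of this length held it at least once. At least 4 matches were found in 8.23% of them and at least 8 in 0.49%. The word is rich in G and C, and these bases made up 61% of the Col1a2 and 59.33% of the Vim promoter. The median over all RefSeq promoters was 52.67%, and the match counts were not adjusted for this. The Col3a1 promoter, also listed, held 3 matches although G and C made up only 37.67% of it. The median over all RefSeq promoters was 1 match. Col1a1 and Fn1 were not matched. A match is a description of the letters and not a binding site.

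Inside the spans of Col1a2, Col3a1, Fn1 and Vim there were 12 MEF peaks and 2 ES peaks, a MEF share of 85.7% (95% exact interval 57.2 to 98.2). On all autosomes MEF peaks made up 54.5%. Per Mb of these spans there were 77.9 MEF and 13.0 ES peaks, beside 21.1 MEF and 17.6 ES peaks on all autosomes. The ES density was thus near the autosomal one. At that density, the 10 to 39 kb spans of Vim, Col1a2 and Col3a1 would often hold no ES peak. In the flanks of these 4 genes the numbers were 16 MEF and 13 ES peaks, a share of 55.2% (35.7 to 73.6). The split into span and flank was chosen after the positions were seen, the difference between them was not tested, and genes elsewhere were not located in mm9. Fn1 supplied 6 of the 12 MEF peaks and both ES peaks. Without Fn1 the counts were 6 and 0 (interval of the share 54.1 to 100). With Col1a2, Col3a1 or Vim left out instead, the counts were 10 and 2 (51.6 to 97.9). Whichever gene was left out, the lower bound fell below 54.5%. Inside Col1a1 the MEF share was 53.8% (37.2 to 69.9).

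**Figure D4:**
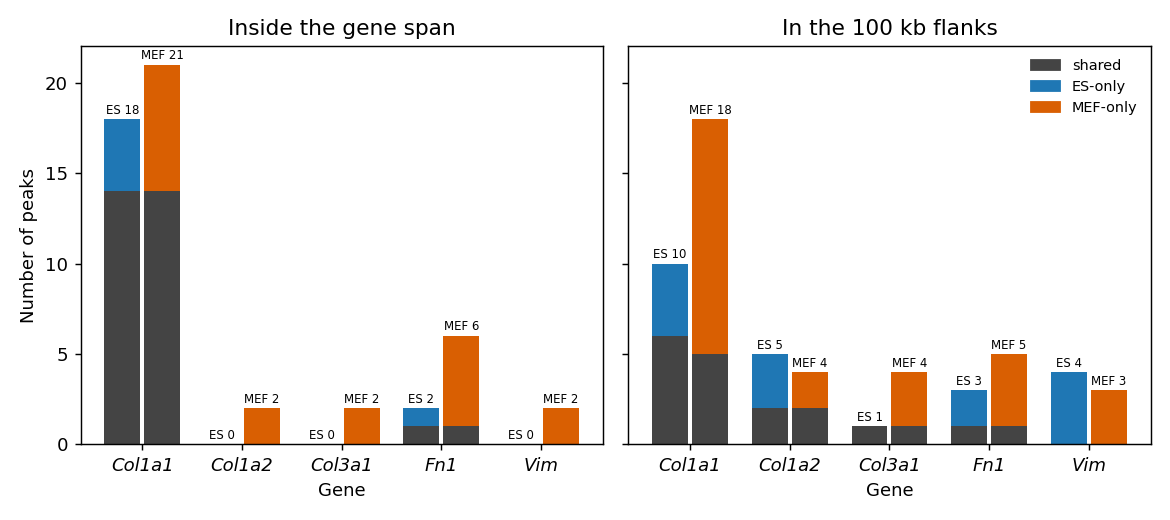
Number of CTCF peaks inside each gene span (left) and in its 100 kb flanks (right), with ES and MEF bars side by side and the total above each bar. Dark segments are shared peaks and coloured segments are peaks of 1 list only. Inside all 5 spans the MEF bars exceed the ES bars, at Col1a1 with 21 against 18 peaks, and 3 ES bars are at 0.

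At the 5′ ends, MEFs had a peak within 1 kb at 4 of the 5 genes and within 3.28 kb at Col3a1. ES cells had one within 1 kb at Col1a1 and at 1.52 kb in Fn1, and at Col1a2, Vim and Col3a1 the nearest ES peak was 39.8, 28.8 and 120.9 kb away. Of all autosomal sequence, 3.98% lay within 1 kb of a MEF peak and 3.31% within 1 kb of an ES peak, but starts of other genes were not located in mm9, so the usual share of gene starts with a peak is not known here. The stretches without an ES peak around the starts of Col1a2 (136.8 kb) and Vim (128.2 kb) were ordinary, as 51.7% and 53.8% of the autosomal sequence between ES peaks lay in stretches at least as long. Spans are given to the nearest kb, so distances below about 1 kb do not separate a promoter peak from one just beside it. A missing peak means only that none was called there, since the reads were not at hand and neither depth nor threshold is known.

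Outside Col1a1, only 1 peak of each list ranked in the top 10%, too few to compare with that share of a list. Of 15 ES peaks, 6 belonged to the higher-scoring 50% of the ES list, and 1 ranked in the top 10%, the peak upstream of Vim. Of 28 MEF peaks, 17 belonged to the higher-scoring 50% of the MEF list, and 1 ranked in the top 10%, the shared peak past Col3a1. The median position was 66.9% from the top in ES cells and 44.7% in MEFs. Of the peaks without a partner at these 4 genes, 5 of 10 in ES cells and 14 of 23 in MEFs lay more than 10 kb from the nearest peak of the other list, close to the 52.3% of all ES-only and 60.8% of all MEF-only peaks. Within 2 kb of such a peak lay 4 of 10 in ES cells and 4 of 23 in MEFs. Of all ES-only peaks 14.7% lay that near, and of all MEF-only peaks 11.9%.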

How the data were processed

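Per the labels' protocols, DNA from sonicated nuclei was recovered with a CTCF antibody and sequenced on an Illumina Genome Analyzer. Per the submitters' processing notes the build is mm9. For the aligner, peak caller, threshold and any control, the sources used here give nothing. The authors deposited 1 peak list per cell type, in which each peak has a whole-number score. As the score is undefined, it served only as a rank within its list (ties share the best rank). Every peak spans 399 bp. Positions count from 1, with 1 added to the deposited start.

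Gene spans came with the selection rule, to the nearest kb. Strands came from the RefSeq promoter table (GRCm38.p6) for Col1a2, Col3a1 and Vim and from general knowledge for Col1a1 and Fn1. RefSeq served otherwise only for gene order. Peaks were assigned by midpoint, with a flank of 100 kb. All 5 genes are named, with the peaks inside their spans, nearest their 5′ ends, ranked highest or shared, or summarised. The members and lists were chosen with earlier results of these data known. Intervals are 95% exact (Clopper-Pearson) binomial intervals, and no p-value was computed because each cell type has 1 library. Overlap counts were tested on simulated data and checked with bedtools 2.31.1. Intervals used scipy 1.17.1, tables pandas 2.3.3 and numpy 2.4.6, and plots matplotlib 3.10.9, all under Python 3.11.15. Alternatives were other flanks, overlap rules, score limits, merged peaks and each gene left out.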

Additional observations from a re-analysis of the deposited data

How the results depend on the processing

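Of 56 alternative values, 50 lay inside the counting interval of the reported value (for peak numbers, within 1.5 times) and 6 moved beyond it. Without the Col1a1 neighbourhood the 110 member peaks became 43, the shared percentage of ES peaks changed from 58.1% to 33.3% and that of MEF peaks from 35.8% to 17.9%. In the higher-scoring 50% of each list 66 peaks were left. Inside the spans of the 4 other genes, the MEF share of 85.7% became 100% both in the higher-scoring 50% of each list (7 peaks) and without Fn1 (6 peaks). These alternatives for the spans were chosen after seeing the data. The pooled ratio of MEF to ES peaks, 1.56, ranged from 1.33 with the MEF list shortened by score to the ES length to 1.87 without Col1a1. Its interval includes the autosomal 1.20 in the full lists and without Col1a1 (0.964 to 3.76). With the MEF list shortened, the interval was 0.877 to 2.02. The lists were then of equal length, so the autosomal 1.20 of the full lists is not the reference for 1.33. No paired analysis was possible because there is only 1 library of either cell type. What depth did to the calls was not tested, as no read numbers are known.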

Other observations

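The Col1a1 span was 1 of 2 places in each list with at least as many peaks in 18 kb, and the other place differed between the lists. In ES cells it began at 5786397 on chromosome 19, with 18 ES peaks and 19 MEF peaks in the same 18 kb. In MEFs it began at 117936741 on chromosome 2, with 21 MEF peaks and 15 ES peaks. Each of these places was therefore crowded in both cell types. No annotation of the mm9 build was used, so no gene is named for them.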
